A study of Mus musculus with 12 samples.

Results

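The difference between Ezh2-deficient and wild type dendritic cells was taken over both maturation stages at once, with the replicate number in the array titles as a block. The comparison used the 8 arrays numbered 1 and 2 out of 12 in the series: 2 Ezh2-deficient immature, 2 Ezh2-deficient LPS-matured, 2 wild type immature and 2 wild type LPS-matured arrays. The 4 arrays numbered 3 were kept out of the fit and used to check each gene, and arrays that share a number are called a set here. Of 10908 genes tested, 59 were called with the block, and 53 of them were not called without it. Those 53 genes are the main subject of what follows.

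RNA came from dendritic cells cultured from bone marrow of mice labelled C57/B6 and was measured on Illumina bead arrays. Marrow donors of every group carried the floxed Ezh2 allele (Ezh2f/f). The Ezh2-deficient donors also carried the inducible Mx-cre transgene, so loss of Ezh2 and presence of the recombinase cannot be told apart in these groups. Ages, sex and the induction of Mx-cre are not given in the labels. The culture medium held 20 ng/ml GM-CSF with 10 ng/ml IL-4 until day 2 and 10 ng/ml GM-CSF from then on, over 6 or 7 days. The matured cells had LPS at 100 ng/ml overnight and the immature cells had none. According to the labels, serum was withdrawn from mature cells for 6 hours in some experiments, without saying which. Whether arrays came from separate animals or cultures is not stated, so the p-values reflect no more than the spread among these samples, which may be technical.

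Ezh2 is the enzyme of Polycomb repressive complex 2 (PRC2), which methylates lysine 27 of histone H3 and keeps developmental genes silent. A second complex, PRC1, binds that mark and ubiquitinates histone H2A. Loss of Ezh2 can release genes that a mature blood cell does not normally use, and the Cdkn2a locus, which encodes cell cycle inhibitors, is a classical Polycomb target. In mammals PRC2 is found mostly at promoters rich in CG dinucleotides.

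The arrays detected 17892 to 19611 probes each, with median intensities of 108 to 119. Of the dendritic cell markers, Itgax, Zbtb46, Cd74, H2-Ab1, Ccr7 and Dcstamp were detected on all 12 arrays and Flt3 on none. The macrophage markers Adgre1, Mrc1, Mertk and Csf1r were also detected on all 12, and C1qa on 6. Some markers of other lineages were detected on all 12 too, such as S100a8, Cpa3, Cd79b, Pf4 and Col1a1, and others on fewer or none. Set 3 stood apart from the other sets. Cdkn2a was at 4.70 and 4.57 (log2) on its arrays labelled Ezh2-deficient and at 8.08 and 7.63 on those labelled wild type, the reverse of sets 1 and 2. The pair labelled wild type in set 3 was also reversed for the LPS-induced cytokine Il6, with 4.93 on its mature and 11.99 on its immature array. Whether the labels of these arrays were exchanged is not stated and was not tested, and an opposite sign in set 3 would mean something else if they were. No array was regrouped, and an average over both stages does not depend on which array of a genotype is called immature.

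The targeted gene gave a mixed picture. The brighter Ezh2 probe changed by -0.10 (log2, SE 0.22, adjusted p = 0.936 in limma over 17632 probes) between Ezh2-deficient and wild type arrays of sets 1 and 2. A dimmer probe was at 4.96, 5.06, 6.10 and 6.61 on the Ezh2-deficient arrays (immature 1 and 2, then matured 1 and 2), against 6.58, 6.03, 6.90 and 7.03 on the wild type arrays. It was detected on 2 of 4 Ezh2-deficient and 4 of 4 wild type arrays. Its change was -0.95 (SE 0.19, adjusted p = 0.0831 in the same fit), and it differed by 0.73 in set 3 as labelled (adjusted p = 0.542). Whether the deletion removes the target of either probe was not tested, so neither checks the labels by itself. The other PRC2 core genes did not pass the test: Ezh1 changed by -0.08, Eed by 0.28 and Suz12 by 0.07.

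With the block, 59 genes passed an adjusted p of 0.05 (limma, Benjamini-Hochberg over all genes), 0.541% of those tested. Of these, 27 were higher in Ezh2-deficient cells (0.248%) and 32 were lower (0.293%). The folds lay between 1.47 and 8.88, with a median log2 change of 1.41 among the higher genes and -1.08 among the lower ones, against -0.02 over all genes tested. Without the block only 6 genes were called (0.0550%): Igf2bp3, Cdkn2a, Bmpr1a, Cd3g and Unc13b, which were higher (0.0458%), and Cbln1, which was lower (0.00917%). The block added 22 higher and 31 lower genes. At an unadjusted p under 0.05 the counts were 1133 with the block and 665 without it. All 59 genes had the same sign in set 1 and in set 2, as did 63.1% of all genes tested, and the same fitted sign in immature and in LPS-matured cells. The genotypes did not overlap within either stage for 43 of them (7.43% of all genes) and over all 8 arrays for 24 (1.46%). These shares come from the contrast that chose the genes.

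The 6 genes called either way are given briefly. Igf2bp3, an RNA-binding protein of fetal tissues, was at 10.58 to 10.97 on the Ezh2-deficient arrays and 7.03 to 8.25 on the wild type ones. Cdkn2a was at 7.28 to 7.84 in Ezh2-deficient cells, against 4.55 to 5.04 in wild type cells, where this probe, the brightest of 3, was not well above background on any array. The change of this probe is therefore a bound, at least 5.04-fold higher (adjusted p = 0.000525). A second Cdkn2a probe, detected on 1 of 4 wild type arrays, changed by 1.27 (adjusted p = 0.0170 over probes), and the third changed by 0.29 (adjusted p = 0.652). Bmpr1a, a BMP receptor, was at 8.49 to 9.05 in Ezh2-deficient and 5.92 to 6.44 in wild type cells. Cbln1, a secreted organizer of synapses, ran the other way, at 5.04 to 5.81 in Ezh2-deficient and 7.94 to 9.11 in wild type cells. It was detected on 1 of 4 Ezh2-deficient and 4 of 4 wild type arrays, so its low values are mostly background. Unc13b, which primes vesicles for release, was 2.69-fold higher.

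Promoter sequences are shown because PRC2 favours CG-rich starts, for the 3 largest rises and the 3 largest falls among called genes that have a promoter window in the RefSeq table. Each line gives the 150 bases before the start of transcription, 5′ to 3′ on the gene's strand, from RefSeq on GRCm38.p6, with every CG in capitals. Cdkn2a has 2 starts.
Igf2bp3, chr6:49214955-49215104, minus strand: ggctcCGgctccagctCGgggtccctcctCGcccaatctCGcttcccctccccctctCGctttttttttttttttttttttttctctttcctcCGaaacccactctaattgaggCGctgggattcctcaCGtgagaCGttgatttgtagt
Cdkn2a downstream start, chr4:89282193-89282342, minus strand: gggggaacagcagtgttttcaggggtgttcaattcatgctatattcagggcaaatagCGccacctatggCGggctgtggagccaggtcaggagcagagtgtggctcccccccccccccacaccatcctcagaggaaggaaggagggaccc
Cdkn2a upstream start, chr4:89294620-89294769, minus strand: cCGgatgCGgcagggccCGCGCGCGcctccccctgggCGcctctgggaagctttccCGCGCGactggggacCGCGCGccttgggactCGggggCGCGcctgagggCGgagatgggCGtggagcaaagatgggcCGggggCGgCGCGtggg
Bmpr1a, chr14:34502547-34502696, minus strand: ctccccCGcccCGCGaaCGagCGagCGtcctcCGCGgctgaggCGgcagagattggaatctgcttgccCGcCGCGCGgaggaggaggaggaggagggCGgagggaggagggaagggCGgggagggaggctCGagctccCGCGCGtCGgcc
Klk1b1, chr7:43966601-43966750, plus strand: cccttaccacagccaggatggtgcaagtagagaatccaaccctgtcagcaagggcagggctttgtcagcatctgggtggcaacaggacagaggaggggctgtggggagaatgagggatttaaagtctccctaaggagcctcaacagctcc
Prss34, chr17:25298244-25298393, plus strand: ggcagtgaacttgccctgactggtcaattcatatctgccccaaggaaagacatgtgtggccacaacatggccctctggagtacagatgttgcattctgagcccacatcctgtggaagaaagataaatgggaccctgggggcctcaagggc
Mcpt8, chr14:56085198-56085347, minus strand: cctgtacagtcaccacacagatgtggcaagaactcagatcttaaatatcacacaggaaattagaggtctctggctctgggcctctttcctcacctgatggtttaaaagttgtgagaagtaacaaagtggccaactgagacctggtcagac

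The upstream Cdkn2a window held 22 CG and the downstream one 2, the Bmpr1a window 20 and the Igf2bp3 window 9. The windows of Klk1b1, Prss34 and Mcpt8 held 0. Among all 32851 promoter windows of this length the median was 4, and 85.71% held at least 1. At least as many CG as in the upstream Cdkn2a, Bmpr1a, Igf2bp3 and downstream Cdkn2a windows stood in 4.106%, 6.246%, 31.66% and 70.71% of them. A window was found for 42 of the 59 genes (71.2%), under the minimum of 80%, so a check of CG content over the called genes is void, and these few windows show nothing about higher against lower genes.

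The higher genes that only the block called include surface receptors, adhesion proteins and signalling proteins. Scara3, a scavenger receptor family member, was at 9.29 and 8.32 on the immature and 8.24 and 7.18 on the LPS-matured Ezh2-deficient arrays of sets 1 and 2. On the wild type arrays Scara3 was at 7.70 and 6.89 in immature and 5.58 and 5.55 in matured cells. The gene was 3.54-fold higher (log2 change 1.83, SE 0.19, adjusted p = 0.00927) and lay apart within both stages, although wild type immature cells overlapped with Ezh2-deficient matured cells. Ccdc80, a secreted matrix-associated protein, was at 12.12 and 10.87 in immature and 8.81 and 7.91 in matured Ezh2-deficient cells, set 1 first. In wild type cells Ccdc80 was at 10.80 and 9.77 when immature and at 6.60 and 6.11 when matured. LPS and the set both moved Ccdc80 a good deal, and within each set and stage the Ezh2-deficient array was the higher one (log2 change 1.60, SE 0.14, adjusted p = 0.00413). A second, dimmer Ccdc80 probe, detected on 2 of 4 arrays of each genotype, changed by 0.29 (adjusted p = 0.652 in limma over probes).

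Nrn1, which encodes neuritin, a neuronal outgrowth factor, was at 5.69 and 6.97 on immature and 7.40 and 7.30 on matured Ezh2-deficient arrays, against 4.64 and 5.65 on immature and 5.08 and 4.69 on matured wild type arrays. It was detected on 4 of 4 Ezh2-deficient and 1 of 4 wild type arrays, and its change was 1.82 (SE 0.29, adjusted p = 0.0414). The higher wild type immature array, of set 2, lay close to the lower Ezh2-deficient one, of set 1. Ncam1, a neural cell adhesion molecule also found on NK cells, was at 7.39 and 7.89 (immature) and 7.37 and 6.37 (matured) in Ezh2-deficient cells. Wild type cells had Ncam1 at 6.13 and 6.33 when immature and at 5.17 and 5.10 when matured. Its change was 1.57 (SE 0.24, adjusted p = 0.0373), and the probe used was not well above background in matured wild type cells. A second, dimmer Ncam1 probe, detected on 3 of 4 wild type arrays, changed by -0.03, so the rise was not seen across both probes.

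Ryk, an atypical receptor for Wnt ligands, was at 7.45 and 7.70 in immature and 7.17 and 7.08 in matured Ezh2-deficient cells, against 5.68 and 6.24 in immature and 5.87 and 5.39 in matured wild type cells. All 4 Ezh2-deficient arrays lay above all 4 wild type arrays, and the change was 1.55 (SE 0.19, adjusted p = 0.0177). Pkp2, a plaque protein of desmosomes, was at 7.79 and 8.33 in immature and 8.96 and 8.58 in matured Ezh2-deficient cells. The wild type arrays had Pkp2 at 6.43 and 7.25 when immature and at 7.25 and 6.93 when matured, again with no overlap (log2 change 1.45, SE 0.22, adjusted p = 0.0373). Neo1, which encodes neogenin, a receptor for netrins and repulsive guidance molecules, was at its brightest probe not well above background on any wild type array and at least 2.13-fold higher in Ezh2-deficient cells (adjusted p = 0.0206). That bound holds for this probe alone: 2 other Neo1 probes, detected on 2 and 1 of 4 wild type arrays, changed by 0.29 and -0.12.

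**Figure D1:**
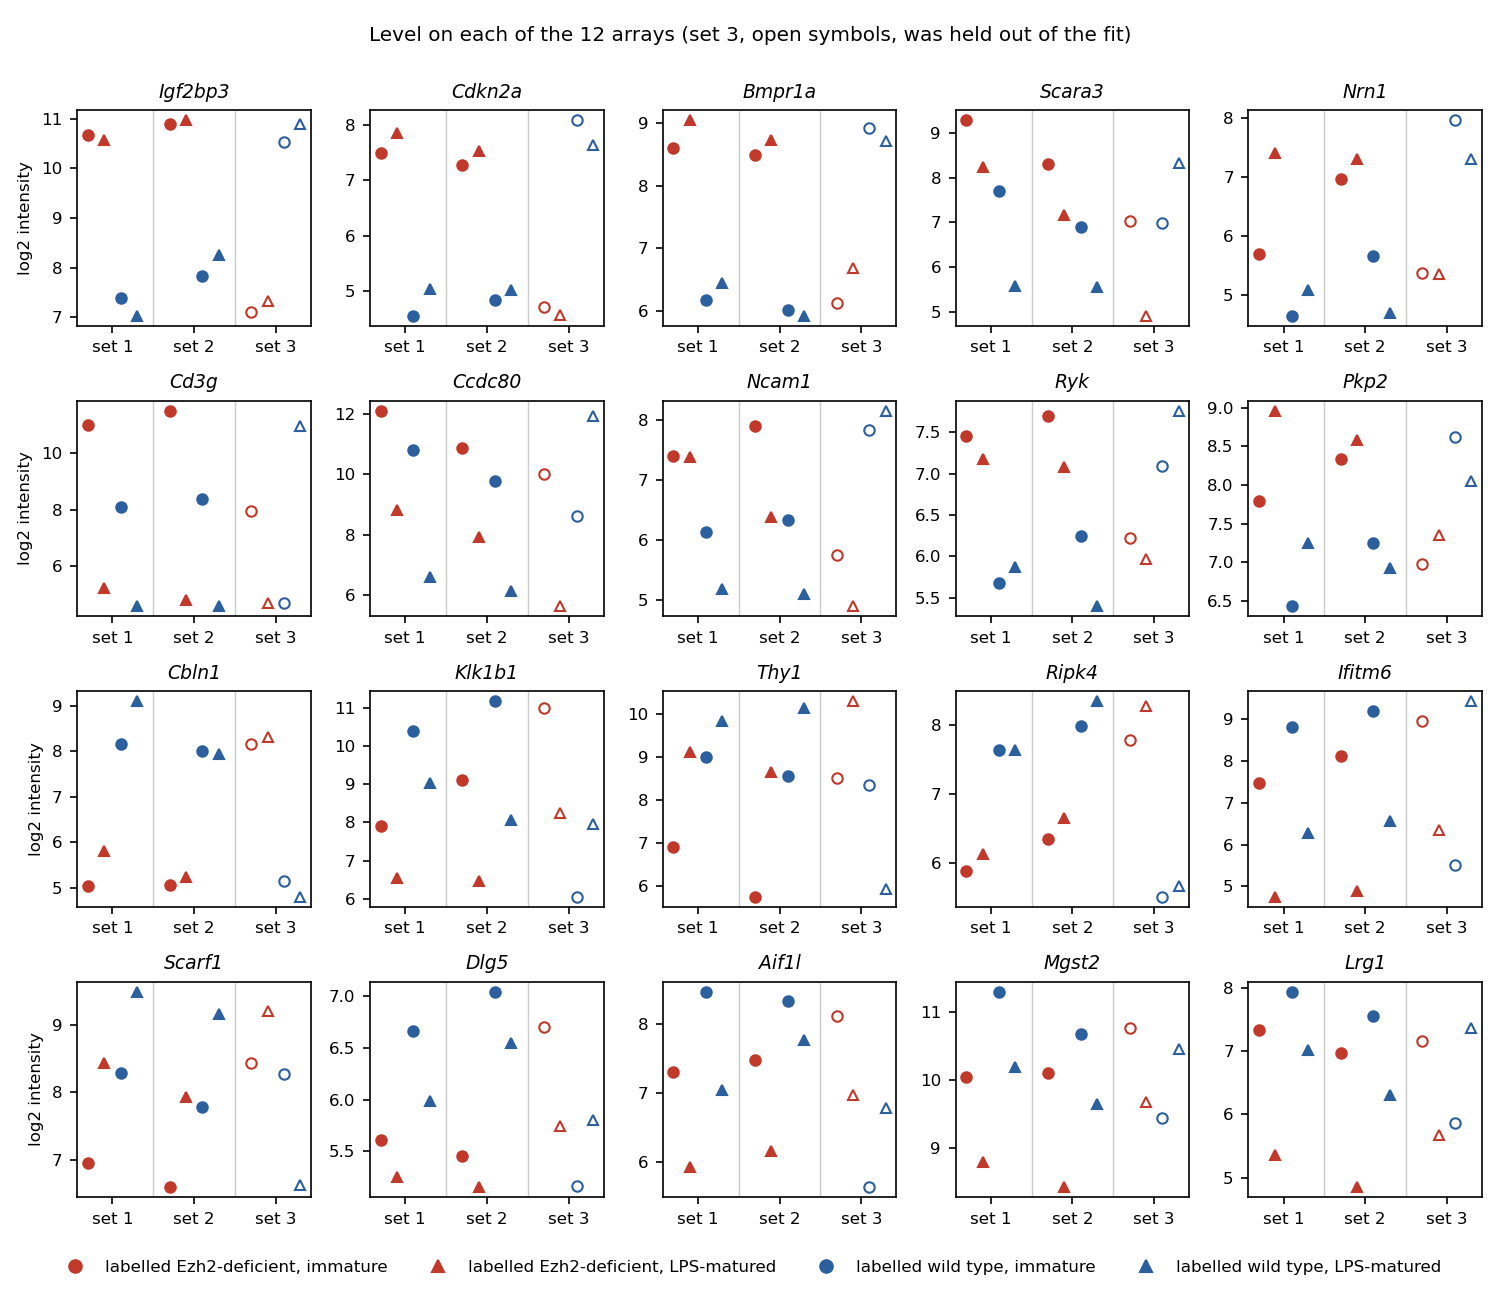
Levels (log2 intensity, vertical axis) of 20 called genes on each of the 12 arrays, in columns for sets 1, 2 and 3, with arrays labelled Ezh2-deficient in red left of those labelled wild type in blue, circles for immature and triangles for LPS-matured cells. The upper 10 genes are higher and the lower 10 lower in Ezh2-deficient cells of sets 1 and 2, while in set 3 (open symbols, not in the fit) Cdkn2a lies at 4.57 and 4.70 on arrays labelled Ezh2-deficient and at 7.63 and 8.08 on those labelled wild type.

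Chromatin and growth control genes were among the smaller rises. Bmi1, a core subunit of PRC1, was at 8.81 and 8.65 on immature and 9.14 and 9.33 on matured Ezh2-deficient arrays, against 7.52 and 6.96 on immature and 8.17 and 8.52 on matured wild type arrays. All 4 Ezh2-deficient arrays lay above all 4 wild type arrays, and Bmi1 was 2.28-fold higher (log2 change 1.19, SE 0.16, adjusted p = 0.0270). It was the only called gene of 18 tested PRC1 subunits, whose median change was 0.03. Cdkn2b, the inhibitor gene next to Cdkn2a on chromosome 4, was at 9.52 and 9.56 on immature and 11.58 and 11.58 on matured Ezh2-deficient arrays. Wild type cells had Cdkn2b at 9.04 and 9.12 when immature and at 10.78 and 10.73 when matured. The stages differed by more than the genotypes, and within each stage the 2 sets were nearly alike, which left a small change with a small error (1.56-fold, log2 change 0.64, SE 0.09, adjusted p = 0.0270). Cdkn2a and Cdkn2b were the only called genes among 15 tested CDK inhibitors and p53 targets, whose median change was 0.18. Of 43 listed developmental Polycomb targets 10 were tested, 8 positive and 2 negative, with a median change of 0.17. The 3 called among them were Bmpr1a, Cdkn2a and Cdkn2b, all higher, while 0.248% of all genes tested were called higher. That list was drawn up with earlier results of these data known.

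Several other higher genes act in signalling. Zfyve9, the SMAD anchor of TGF-beta signalling, was 2.67-fold higher and Hif3a, a hypoxia-inducible factor subunit, 2.37-fold. A second Hif3a probe, detected on 3 of 4 Ezh2-deficient and 2 of 4 wild type arrays, changed by 0.02. Bmpr1a was the only called gene of 20 tested in the list of BMP and TGF-beta pathway genes, which does not hold Zfyve9. Frmd5, a FERM domain protein, was 2.27-fold higher, and Ppp1r1a, an inhibitor of protein phosphatase 1, 2.00-fold. Fam135a was 2.72-fold higher, Cep112 2.23-fold, Ptpdc1 1.97-fold, and Gkap1 and Armcx2 1.96-fold each. Klrb1b, an NK cell receptor gene, was 1.81-fold higher and Tspan17, a tetraspanin, 1.79-fold. Retreg1, a receptor for autophagy of the endoplasmic reticulum, was 1.69-fold higher with the smallest error of these (SE 0.08). Ctsa, a lysosomal carboxypeptidase, was 1.65-fold higher at its brightest probe. Of its 3 other detected probes, one changed by -0.19 and the others by 0.05 and 0.07, so the Ctsa call rests on 1 probe.

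The lower genes that only the block called were led by proteases and surface proteins. Klk1b1, a kallikrein of the tissue kallikrein cluster, was at 7.90 and 9.10 on immature and 6.55 and 6.46 on matured Ezh2-deficient arrays, against 10.39 and 11.17 on immature and 9.03 and 8.07 on matured wild type arrays. Its change was -2.16 (SE 0.31, adjusted p = 0.0318), and the genotypes lay apart within both stages. Kallikreins of this cluster are close in sequence and the probe may bind several of them, so the gene assignment is uncertain. Thy1, a surface glycoprotein of T cells and some myeloid cells, was at 6.90 and 5.74 in immature and 9.12 and 8.65 in matured Ezh2-deficient cells. On wild type arrays Thy1 was at 8.99 and 8.55 when immature and at 9.84 and 10.15 when matured (log2 change -1.78, SE 0.21, adjusted p = 0.0163). The gap was widest in immature cells, and the T and NK cell list around Thy1 had 17 tested genes with 1 called in each direction, Cd3g and Thy1.

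Ripk4, a kinase of epidermal differentiation, was at 5.87 and 6.35 on immature and 6.13 and 6.65 on matured Ezh2-deficient arrays, against 7.64 and 7.99 on immature and 7.64 and 8.35 on matured wild type arrays. The 4 arrays of each genotype did not overlap, and the change was -1.66 (SE 0.13, adjusted p = 0.00303). A second Ripk4 probe changed by -1.40. Scarf1, a scavenger receptor of endothelial and antigen-presenting cells, was at 6.95 and 6.59 in immature and 8.44 and 7.93 in matured Ezh2-deficient cells. In wild type cells Scarf1 was at 8.29 and 7.78 when immature and at 9.50 and 9.16 when matured. Maturation and genotype moved Scarf1 by similar amounts, so immature wild type and matured Ezh2-deficient cells overlapped (log2 change -1.21, SE 0.11, adjusted p = 0.00677).

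Dlg5, a membrane-associated scaffold of cell polarity, was at 5.61 and 5.46 in immature and 5.26 and 5.15 in matured Ezh2-deficient cells, against 6.66 and 7.04 in immature and 5.99 and 6.55 in matured wild type cells. It was detected on 2 of 4 Ezh2-deficient and 4 of 4 wild type arrays and changed by -1.19 (SE 0.17, adjusted p = 0.0331). Aif1l, an actin-binding relative of Aif1, was at 7.30 and 7.48 in immature and 5.93 and 6.16 in matured Ezh2-deficient cells, against 8.47 and 8.34 in immature and 7.04 and 7.77 in matured wild type cells (log2 change -1.19, SE 0.16, adjusted p = 0.0280). Both genes lay apart within each stage. Mgst2, a microsomal glutathione transferase, was at 10.05 and 10.11 in immature and 8.80 and 8.43 in matured Ezh2-deficient cells. Wild type cells had Mgst2 at 11.30 and 10.68 when immature and at 10.20 and 9.65 when matured (log2 change -1.11, SE 0.13, adjusted p = 0.0142). Gstm2, a cytosolic enzyme of the same detoxifying function, was 2.03-fold lower with one of the smaller errors (SE 0.09, adjusted p = 0.00477).

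A few genes of basophils and mast cells form one group among the lower genes. Prss34, a serine protease of basophils and mast cells, was at 8.78 and 5.34 on immature and 8.12 and 5.23 on matured Ezh2-deficient arrays, against 10.07 and 7.68 on immature and 9.76 and 7.19 on matured wild type arrays. Within each set every Ezh2-deficient array lay below every wild type array, yet the set shift of -2.82 exceeded the genotype change of -1.81 (SE 0.18, adjusted p = 0.00869). Mcpt8, a basophil protease, was at 6.64 and 5.08 in immature and 6.14 and 4.94 in matured Ezh2-deficient cells, against 8.41 and 6.97 in immature and 8.10 and 5.94 in matured wild type cells. Its change was -1.65 (SE 0.18, adjusted p = 0.0108), and it was detected on 2 of 4 Ezh2-deficient and 4 of 4 wild type arrays. Fcer1a, the IgE-binding chain of the high-affinity IgE receptor, was 2.31-fold lower. Like Prss34, Fcer1a was detected on 3 of 4 Ezh2-deficient and 4 of 4 wild type arrays. These 3 were the called genes among 11 tested markers of mast cells, basophils and eosinophils. Of all genes tested 0.293% were called lower. The median change of the 11 markers was -0.20, with 6 negative and 5 positive. The summed intensity of that list was 2765 to 15518 on Ezh2-deficient and 3347 to 14976 on wild type arrays of sets 1 and 2, so the list as a whole overlapped. In bulk RNA fewer cells of a type and less RNA per cell cannot be told apart.

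Genes best known from neutrophils and the acute phase form another group, picked here after their values were seen. S100a8, a calcium-binding protein of neutrophils, was at 13.12 and 11.33 on immature and 11.48 and 10.13 on matured Ezh2-deficient arrays, against 13.52 and 12.43 on immature and 12.20 and 11.004 on matured wild type arrays (log2 change -0.77, SE 0.12, adjusted p = 0.0438). The lower wild type immature array lay below the higher Ezh2-deficient one, and within each set and stage the Ezh2-deficient array was the lower one. Lrg1, a glycoprotein of neutrophil granules and of the acute phase, was at 7.34 and 6.97 in immature and 5.36 and 4.85 in matured Ezh2-deficient cells. In wild type cells Lrg1 was at 7.94 and 7.56 when immature and at 7.01 and 6.31 when matured (log2 change -1.07, SE 0.14, adjusted p = 0.0226). Ifitm6, a myeloid interferon-induced transmembrane protein, was at 7.48 and 8.13 in immature and 4.74 and 4.89 in matured Ezh2-deficient cells, against 8.80 and 9.20 in immature and 6.28 and 6.57 in matured wild type cells. Its change was -1.40 (SE 0.14, adjusted p = 0.00869), and it was detected on 2 of 4 Ezh2-deficient and 4 of 4 wild type arrays. Hp, which encodes haptoglobin, was 2.12-fold lower, Slpi, a protease inhibitor, 1.76-fold, Wfdc17, a related inhibitor-like protein, 1.47-fold and Saa3, an acute phase protein, 2.11-fold. Of 20 tested neutrophil markers 1 was called, S100a8, while 0.293% of all genes tested were called lower. Of the same 20, 17 were negative with a median change of -0.47, and 12 had an unadjusted p under 0.05 in limma. Over all genes tested 54.2% were negative and 10.4% had such a p. The summed intensity of the neutrophil list was 9449 to 40422 on Ezh2-deficient and 14288 to 51983 on wild type arrays. The part of neutrophil content in these changes was not tested.

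Icam2, a ligand of the beta2 integrins, was 1.94-fold lower and was the only called gene of 34 tested integrin and talin genes. In that list Tln1 changed by 0.05, Tln2 by 0.69 (adjusted p = 0.293) and Vav1 by -0.28 (adjusted p = 0.291). The chemokines Ccl4 and Pf4 were 1.60-fold and 1.67-fold lower, and no other of 27 tested chemokines and receptors was called. Ly6c1, a monocyte and endothelial surface protein with a close paralog that its probe may also bind, was 2.29-fold lower (log2 change -1.20, SE 0.09, adjusted p = 0.00240). Fcmr, the receptor for IgM, was 1.69-fold lower, Cd300ld, a myeloid receptor of the CD300 family, 1.91-fold, and Gpr84, a receptor for medium-chain fatty acids, 1.84-fold. Pou4f1, a neuronal transcription factor, was 2.56-fold lower, Ndrg2 1.92-fold, the zinc importer Slc39a4 1.77-fold and the LIM domain protein Csrp2 1.65-fold. Snx24, a sorting nexin, was 1.56-fold lower and Dram1, an autophagy gene, 1.47-fold.

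Some gene lists with no called member are given beside all genes tested, of which 54.2% were negative and 10.4% had an unadjusted p under 0.05. Of 35 tested cell cycle genes 30 were negative, with a median change of -0.25 (0.02 in set 3), and 3 had an unadjusted p under 0.05. Of 17 cholesterol synthesis genes 16 were negative, with a median of -0.26 (0.36 in set 3) and 5 under that p. Dendritic cell maturation genes had 23 of 31 positive and a median of 0.13, with 0.22 in set 3. Macrophage markers had 7 of 17 positive and a median of -0.14 in both (sets 1 and 2, and set 3). Stromal and endothelial markers had a median change of 0.29 over 16 tested genes (0.41 in set 1 and 0.14 in set 2). Of these, 10 were positive and 6 negative. Counted without regard to sign, 10 of the 16 had an unadjusted p under 0.05 in limma. Fn1 was nearest to a call (adjusted p = 0.0529). The summed intensity of the stromal list was 4553 to 8360 on Ezh2-deficient and 3710 to 5916 on wild type arrays. Matrix and adhesion genes such as Ccdc80 were higher on the same arrays, and the part of stromal content in them was not tested.

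The shift between sets is removed by the block, and it entered the choice of the 53 block-only genes, so it is given as a description. The absolute shift from set 1 to set 2 had a median of 0.44 (log2) over the 53 genes, 0.21 over the 6 and 0.18 over all genes tested. Among the 53 it was 0.51 for the lower and 0.27 for the higher genes. For 8 lower genes, Prss34, Fcmr, S100a8, Pf4, Ndrg2, Slpi, Csrp2 and Dram1, the shift exceeded the genotype change itself, and for 0 higher ones. The median SE of the 53 was 0.14 with the block and 0.23 without it, against 0.14 and 0.17 over all genes. A block within each stage, chosen after seeing the data, called 408 genes (3.74%), 185 higher (1.70%) and 223 lower (2.04%), among them 57 of the 59. The shift was small for several block-only genes, at 0.02 for Cdkn2b and Snx24, -0.01 for Ccl4, -0.04 for Bmi1 and 0.06 for Ryk, and it was 0.58 for Igf2bp3, called either way. For Prss34 the SE was 0.18 with the block and 1.02 without it, and for Fcmr 0.10 and 0.53.

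**Figure D2:**
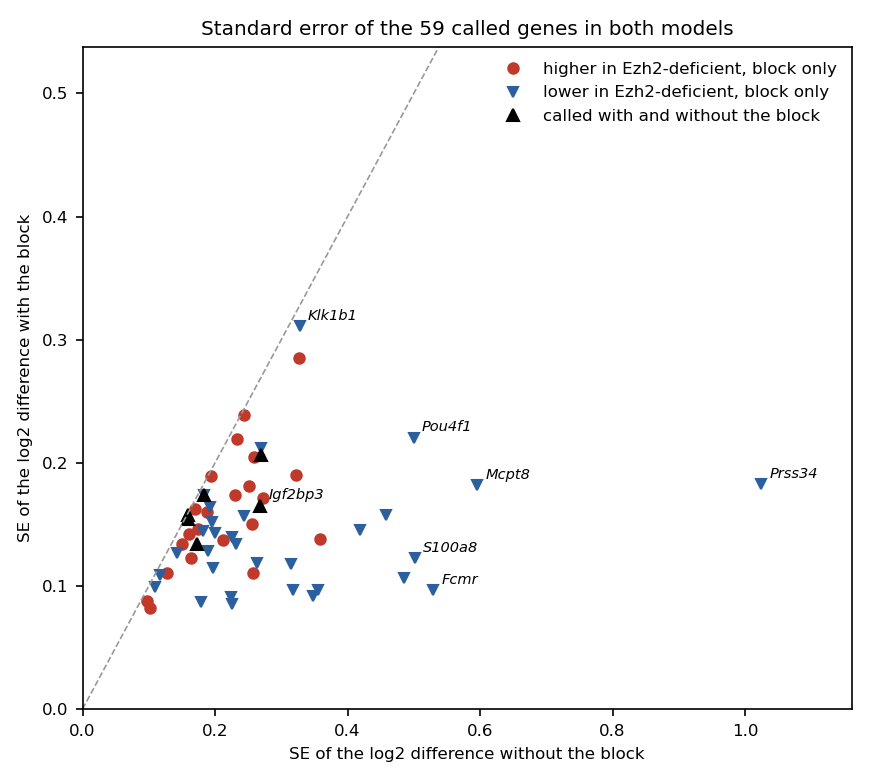
Standard error of the log2 difference with the block (vertical axis) against that without it (horizontal axis) for the 59 called genes, with red circles for higher and blue triangles for lower genes that only the block called, black triangles for the 6 called in both, and a dashed line at equal error. The lower genes reach furthest to the right, with Prss34 at 1.02 without and 0.18 with the block.

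Set 3 was then read gene by gene as labelled. Of the 59 genes, 56 had the opposite sign there, against 60.0% of all genes tested. All 27 higher genes turned (56.4% of all genes with a positive change did), and 29 of 32 lower genes (63.1% of all genes with a negative change). In set 3 as labelled, 28 genes passed the test (0.257% of those tested) and each of them was opposite to sets 1 and 2. Of these, 17 were among the 59, which is 28.8% of the 59 and 60.7% of the set 3 calls, and 13 of those 17 were block-only genes. The spread behind the set 3 test comes from the other 8 arrays, because each array of set 3 stands alone in its labelled group. For 26 of the 59 genes the set 3 difference was at least as large in size as that of sets 1 and 2. Across all genes the correlation was 0.51 between sets 1 and 2 and -0.48 between their mean and set 3 (Pearson, over 10908 genes normalized together, with genes not independent of each other).

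Several genes that passed the test in set 3 are given first. Ripk4 was at 7.79 and 8.29 on the set 3 arrays labelled Ezh2-deficient and at 5.50 and 5.66 on those labelled wild type, a difference of 2.46 (adjusted p = 0.00320) against -1.66 in the other sets. Ccdc80 was at 10.02 and 5.61 on the arrays labelled Ezh2-deficient and at 8.61 and 11.93 on those labelled wild type (difference -2.46, adjusted p = 0.00320). Ncam1 differed by -2.68 (adjusted p = 0.0368), Retreg1 by -1.18 (adjusted p = 0.0114) and Ctsa by -1.26 (adjusted p = 0.0368). On the lower side Thy1 differed by 2.27, Prss34 by 1.89, Pou4f1 by 2.22, Ndrg2 by 1.61, Scarf1 by 1.37, Fcmr by 1.29, Csrp2 by 1.19 and Gstm2 by 1.04, all past the test. Bmi1 (-1.0) and Cdkn2b (-0.59) turned in sign without passing it. Other genes differed less in set 3 than in sets 1 and 2, such as Frmd5 (-0.47 against 1.18), Ly6c1 (0.60 against -1.20) and Dlg5 (0.73 against -1.19).

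**Figure D3:**
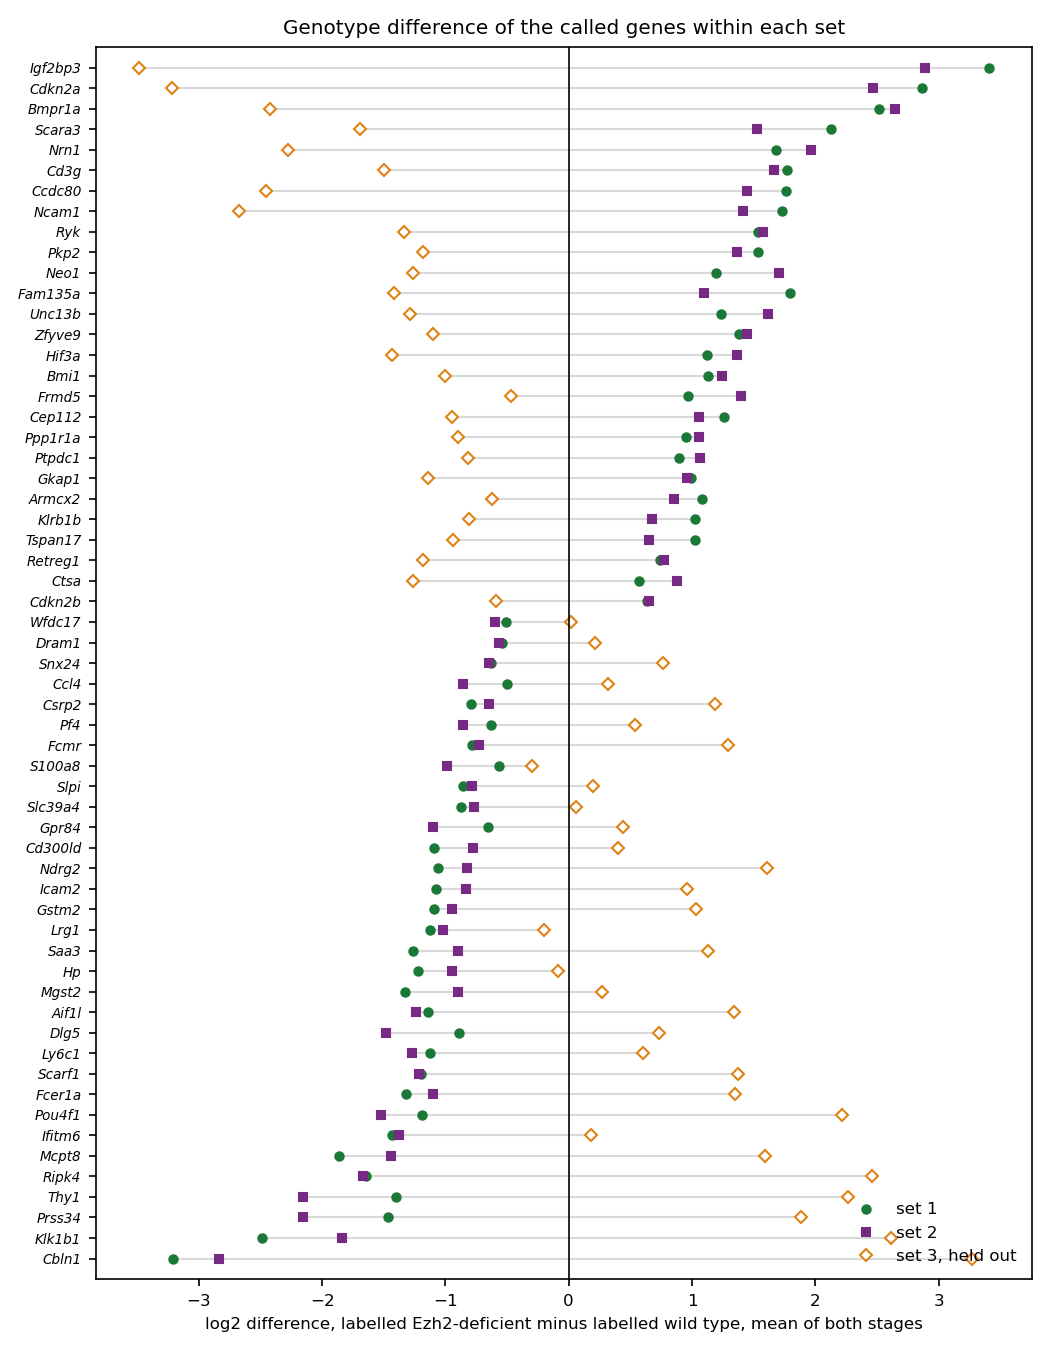
Difference between arrays labelled Ezh2-deficient and labelled wild type (log2, mean of both stages, horizontal axis) of the 59 called genes, 1 row a gene, in set 1 (green circles), set 2 (purple squares) and the held-out set 3 (open orange diamonds). Sets 1 and 2 lie on the same side of 0 for all 59 genes, and set 3 lies on the other side for 56.

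The lower genes did not all turn alike. The 3 that kept their sign in set 3 were S100a8 (-0.29), Lrg1 (-0.20) and Hp (-0.09). Wfdc17 (0.02), Slc39a4 (0.06), Ifitm6 (0.18), Slpi (0.19), Dram1 (0.21) and Mgst2 (0.27) lay near 0, and none of these 9 passed the set 3 test. Ifitm6 was at 8.95 and 6.35 on the set 3 arrays labelled Ezh2-deficient and at 5.50 and 9.43 on those labelled wild type, so the means of the 2 pairs were close. Saa3, named above with the acute phase genes, did turn, with 1.13 in set 3 against -1.08 in sets 1 and 2. The neutrophil list as a whole had a median of -0.26 in set 3, against -0.47 in sets 1 and 2. The 3 called basophil and mast cell genes had the opposite sign: Prss34 differed by 1.89 (adjusted p = 0.0449), and Mcpt8 by 1.59 and Fcer1a by 1.35 without passing the test (adjusted p = 0.0793 for each). Their list had a median of 0.02 in set 3, against -0.20 in sets 1 and 2. The stromal list had a median of -0.91 in set 3, against 0.29 in sets 1 and 2.

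**Figure D4:**
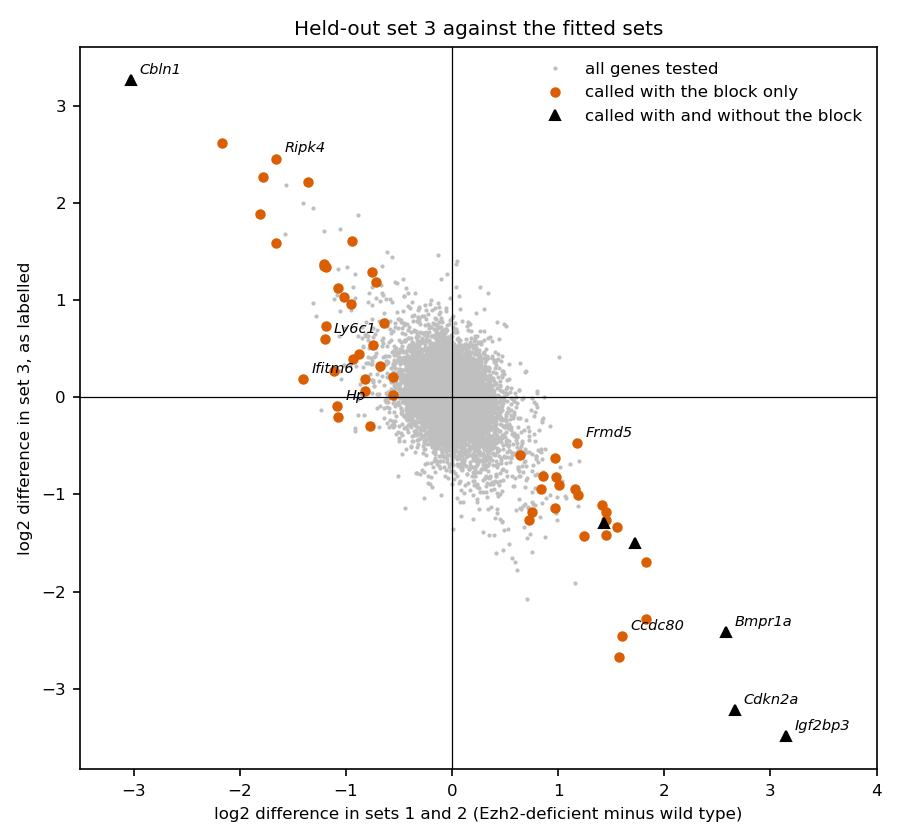
Difference in set 3 as labelled (vertical axis) against the difference in sets 1 and 2 (horizontal axis), both log2, for all 10908 genes in grey, the 53 block-only genes as orange circles and the 6 called either way as black triangles. The called genes run from upper left (Cbln1, -3.02 and 3.27) to lower right (Igf2bp3, 3.15 and -3.49), with a cluster of lower genes such as Ifitm6 and Hp near 0 in set 3.

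The genotype difference was next compared between stages. No gene passed the test of the difference itself (limma, interaction of genotype with stage, 0 called, smallest adjusted p = 0.375), while 387 genes had an unadjusted p under 0.05. Among the 59 genes 15 had an unadjusted p under 0.05, and 7 differed by more than 1 log2 unit between stages: Cd3g, Nrn1, Ppp1r1a, Fcmr, Ndrg2, Saa3 and Thy1. Saa3 changed by -1.95 (SE 0.22) in immature and by -0.21 (SE 0.22) in matured cells, where LPS had brought it to 15.36 and 15.00 in Ezh2-deficient and 15.50 and 15.28 in wild type cells. The highest level of Cd74 on any array was 15.97, and whether signal near the top of the scale limits the matured difference of Saa3 was not tested. Fcmr changed by -1.40 in immature and -0.11 in matured cells, and Ndrg2 by -1.58 and -0.30. Hp and Lrg1 leaned the other way, with changes of -0.63 and -0.59 in immature and -1.54 and -1.56 in matured cells. Cd3g, part of the T cell antigen receptor, changed by 3.0 in immature cells and was detected on no matured array of sets 1 and 2, so its matured value of 0.44 is a difference between background values.

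**Figure D5:**
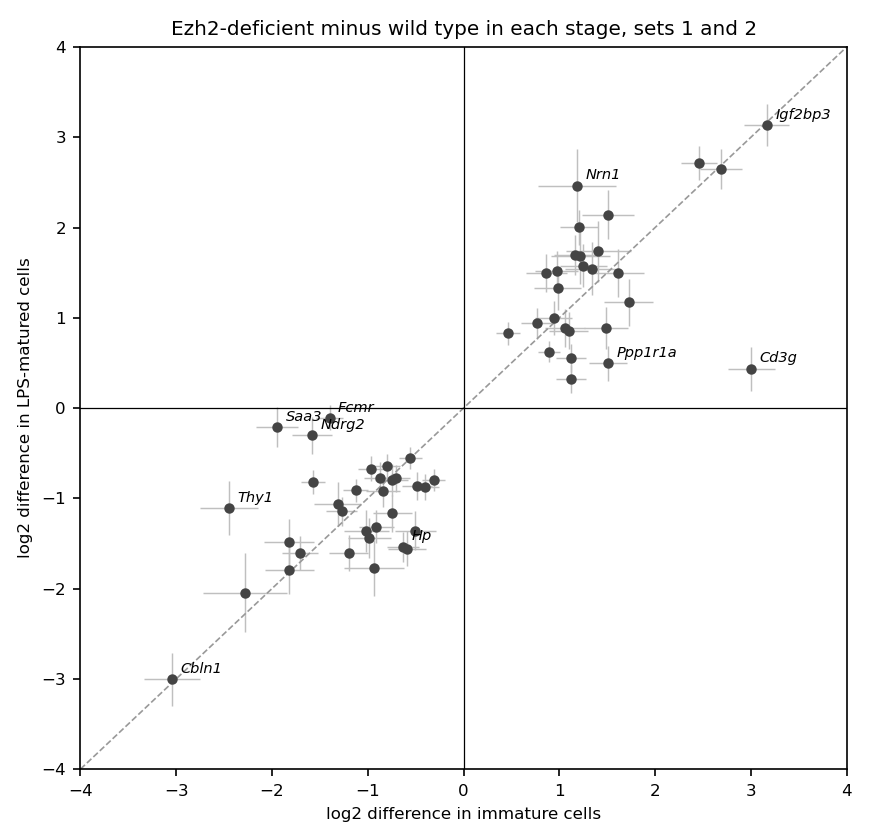
Log2 difference between Ezh2-deficient and wild type cells in immature (horizontal axis) and LPS-matured cells (vertical axis) for the 59 called genes of sets 1 and 2, with bars of 1 SE and a dashed line at equal change. The fitted values of all 59 have equal sign in both stages, although the matured value of Cd3g (0.44) lies between background values, and Fcmr (-1.40 and -0.11) and Ndrg2 (-1.58 and -0.30) lie well off the line.

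By position, the called genes lay on 18 chromosomes. Cdkn2a and Cdkn2b were next to each other among tested genes on chromosome 4, and Ccl4 and Wfdc17, which were both lower, on chromosome 11. Gpr84, which was lower, and Ppp1r1a, which was higher, were 5 tested genes apart on chromosome 15. Igf2bp3 lay 21 tested genes from Ezh2 on chromosome 6, and 0 of the 20 tested genes nearest to Ezh2 were called. Of the 59 genes 23 had other detected probes, 36 in all, and 33 of those 36 had the same sign as the probe used. The exceptions were probes of Ctsa, Ncam1 and Neo1. Of the 36 probes, 17 passed the limma test over probes, which 100 of all 17632 tested probes passed. Some changes of the same sign were small, such as 0.02 for a Hif3a probe and 0.14 for a Klrb1b probe.

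The number of called genes depended on each array. It was 31 and 27 without Ezh2-deficient immature 1 and 2, 34 and 16 without Ezh2-deficient matured 1 and 2, 12 and 9 without wild type immature 1 and 2, and 18 and 12 without wild type matured 1 and 2. Of the 59 genes 8 stayed called without any single array: Igf2bp3, Cdkn2a, Bmpr1a and Cbln1, and of the block-only genes Ccdc80, Gstm2, Ly6c1 and Ripk4. When set 3 entered the limma fit as labelled, 0 genes were called, and the unadjusted p was under 0.05 for 95.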

How the data were processed

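The authors deposited, per the file headers, intensities and detection p-values of 45281 probes on each of 12 arrays, not log-transformed and not normalized. A second deposited file, with log2 values whose median was 6.84 on every array, served as an alternative. The tools, per the submitters' processing notes, were BeadStudio, R 2.15.2 and limma. Intensities were background-corrected, quantile-normalized over 12 arrays and brought to log2 with neqc (offset 16) in limma 3.58.1 (R 4.3.3). A probe was kept when 3 or more of the 12 arrays had its detection p under 0.05, which left 21049. Of all probes 34885 had 1 gene symbol in GEO's platform annotation, 18 several and 10378 none, and 34807 symbols were updated through their gene identifier. The detected probe with the highest mean stood for each gene, which left 10908 genes. The number of arrays limits the precision. A gene is not above background in a genotype where all 4 of its arrays failed detection, and its fold is then at least the ratio to the lowest detected signal of those arrays.

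The 4 group means and the replicate number as a block were fitted with limma's lmFit over 8 arrays, with moderated variances that follow intensity (eBayes, trend), which left 3 residual degrees of freedom. Set 3 was tested in a fit of 12 arrays with 1 coefficient for each of its arrays. P-values are two-sided and Benjamini-Hochberg adjusted over all genes. The labels do not say that a number marks a shared animal, culture or day, and the block is a choice of this comparison. As a check, deviations of same-numbered arrays of sets 1 and 2 were correlated across genes between groups. The 2 genotypes correlated at 0.55 in immature and 0.72 in matured cells, and groups of different stages at 0.22 to 0.31. Over 2 numbers this does not settle a pairing. The fits were tested on simulated data. The 29 gene lists hold 691 symbols, of which 480 were tested, and lists are described by counts and medians only. Values on every array are given for the 10 largest rises and falls among called genes with an approved symbol whose genotypes did not overlap within either stage, and for a few others. Genes called without the block are given briefly, and Ezh2, Ezh1, Eed, Suz12, Tln1, Tln2 and Vav1 are named whether called or not. The members and lists were chosen with earlier results of these data known. Alternatives were the deposited table, other normalizations, detection filters, probe rules, models with and without the block, and leaving out each array.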

Additional observations from a re-analysis of the deposited data

Results flagged for a closer look

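Probes that the annotation gives no single gene symbol were outside the gene-level comparison. Of 3417 such detected probes, 22 passed the same limma test of the genotype difference in sets 1 and 2, 15 higher and 7 lower in Ezh2-deficient cells, and 20 of the 22 had the opposite sign in set 3 as labelled.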

How the results depend on the processing

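The 59 genes kept their direction in all 1239 repeats over 21 alternatives, while the number called moved. Every alternative reused arrays that had chosen the genes, so a kept direction is no independent support. With no replicate block 6 genes were called in sets 1 and 2 and 1 in set 3. The other 53 of the 59 calls rest on the block, which is a choice, as the labels do not tie the numbers to a source. All detected probes in place of 1 a gene gave 100 calls, eBayes without trend 38 (6 in set 3), and all 12 arrays as labelled 0. The additive model with the block gave 83, 48 higher and 35 lower against 27 and 32, and kept 47 of the 59. A block within each stage, chosen after seeing the data, gave 408. Leaving out 1 array gave 9 to 34 calls in sets 1 and 2 and 9 to 29 in set 3. The deposited table and quantile normalization without background correction each gave 17 calls in set 3, and each kept 48 of the 59. The interaction stayed at 0 calls in every alternative in which it was run. With 2 arrays a group and 3 residual degrees of freedom, single adjusted p-values near 0.05 are loose: Neurl1a missed the threshold at 0.0501. The cause of these moves was not tested.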

Other observations

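When each Ezh2-deficient array was set against the wild type array of its own number and stage (a block within each stage, chosen after seeing the data), limma called 408 genes (3.74%), 185 higher and 223 lower in Ezh2-deficient cells. They included 57 of the 59 genes above. Of the 408, 344 (84.3%) had the opposite sign in set 3 as labelled, against 60.0% of all genes tested, and of the 351 that the other block did not call, 290 (82.6%) did.

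The genes named next were picked after their values were seen. Apart from Klk1b1, none of them passed the test with the block over both stages. More kallikreins were lower in Ezh2-deficient cells beside Klk1b1: Klk1b8 by a log2 change of -1.31, Klk1b27 by -1.21, Klk1b11 by -1.09, Klk1b5 by -1.06 and Klk1b9 by -0.99, and all 5 had the opposite sign in set 3, where none passed the test. Their probes may bind each other's transcripts. The complement genes C1qc (-1.56) and C1qb (-1.40), which macrophages express strongly, were lower, with set 3 differences of 2.18 and 2.00 that did not pass the test (adjusted p = 0.233 and 0.164). Neither passed with the block over both stages (adjusted p = 0.168 and 0.122), and the macrophage list they come from had 0 calls there among 17 tested genes, 6 of them with an unadjusted p under 0.05. The neutrophil genes S100a9 (-1.23), Ltf (-0.89) and Chil1 (-1.05) were lower too, with set 3 differences of -0.14, -0.18 and 0.19. With the block over both stages their adjusted p-values in limma were 0.0583, 0.319 and 0.169. Among the higher genes, the matrix genes Fn1 (1.16) and Tnc (0.88) had set 3 differences of -1.91 and -1.44, and Npy, a neuropeptide gene (0.98), one of -1.26.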
